A study of Mus musculus with 22 samples.

Results

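The glycine receptor system was followed through 6 genes, listed by Ensembl gene identifier in the count tables and matched to their symbols: the receptor subunits *Glra1*, *Glra2*, *Glra3* and *Glrb* and the glycine transporters *Slc6a5* and *Slc6a9*. They are 6 of the 39179 genes in the tables. All 6 have a row in the table of each of the 22 libraries. *Glra2* was chosen by its level in knockout (KO) against wild-type (WT) prefrontal cortex, where it was higher in KO, and the other genes were added as its partners, so values from that contrast are given below as a description without a test.

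The glycine receptor is a pentameric chloride channel that opens when glycine binds. Its alpha subunits carry most of the agonist site and can form channels alone, while the beta subunit binds the scaffold protein gephyrin and holds receptors at inhibitory synapses. In the adult nervous system synaptic glycine transmission is best known from the spinal cord and brainstem, where the alpha1 subunit prevails, whereas alpha2-containing receptors are prominent in the developing brain and persist in the forebrain.

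The libraries came from *Phf8* KO and WT mice or cells labelled B6x129SvJ for strain. PHF8 is a histone demethylase encoded on the X chromosome, and the allele was made by gene targeting in male embryonic stem cells (ESCs). The groups were ESCs derived from blastocysts (2 WT and 2 KO), neural progenitor cells (NPCs) derived from E16.5 embryos and grown as a monolayer (3 and 3), ventral striatum (STR) of animals aged 2 months (3 and 3) and prefrontal cortex (PFC) of animals of the same age (3 and 3). The labels give no treatment. The allele is carried by every cell of a KO animal, so a difference in brain tissue cannot be assigned to a cell type, and the labels do not say whether replicates were separate animals, cultures or clones or whether STR and PFC came from the same animals. The p-values therefore measure the spread between these samples, which may be partly technical.

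Assigned reads ranged from 11455757 to 15539811 in the cultured libraries and from 5898286 to 10148073 in the brain libraries. *Phf8* itself averaged 41.8 to 67.3 CPM (read counts scaled to a common library size) in the WT groups and 15.6 to 19.4 CPM in the KO groups, so transcript remained but was lower in all 4 tissues. Marker genes followed the labels: the 6 striatal markers summed to 1020 to 1390 CPM in STR against 142 to 170.5 CPM in PFC. The 5 cortical excitatory markers summed to 876.5 to 1074 CPM in PFC against 117 to 542 CPM in STR, so they were lower but not absent in STR. The 5 stem cell markers summed to 2991 to 3712 CPM in ESCs and the 6 progenitor markers to 3411 to 4951 CPM in NPCs. One library stood apart. STR KO replicate 1 had 203 CPM over 9 hypothalamic marker genes against 15.6 to 35.3 CPM in the other 5 STR libraries, and 117 CPM over the cortical list against 373 to 542 CPM, so the STR differences below are also given without it. In NPCs the 5 oligodendrocyte markers ranged from 39.8 to 2364 CPM between libraries of both genotypes, and the 4 neuronal markers reached at most 20.2 CPM against at least 1191 CPM in brain.

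The promoter sequences of *Glra2* and *Glra3* are printed with that of *Glrb*. *Glra2* and *Glra3* were the 2 alpha subunit genes with enough reads to test in brain, and both lay higher in both KO brain regions. The KO means of *Glrb* were not higher. Each line holds the 250 bases before the RefSeq start (GRCm38.p6), 5′ to 3′ on the strand of the gene, with CG dinucleotides in capitals. The windows are chrX:165327394-165327643 on the minus strand for *Glra2*, chr8:55940168-55940417 on the plus strand for *Glra3* and chr3:80913661-80913910 on the minus strand for *Glrb*.
Glra2: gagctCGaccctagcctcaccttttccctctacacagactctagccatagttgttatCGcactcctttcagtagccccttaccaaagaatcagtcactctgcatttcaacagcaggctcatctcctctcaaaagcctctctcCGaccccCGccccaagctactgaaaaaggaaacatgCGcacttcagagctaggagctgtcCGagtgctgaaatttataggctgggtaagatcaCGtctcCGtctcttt
Glra3: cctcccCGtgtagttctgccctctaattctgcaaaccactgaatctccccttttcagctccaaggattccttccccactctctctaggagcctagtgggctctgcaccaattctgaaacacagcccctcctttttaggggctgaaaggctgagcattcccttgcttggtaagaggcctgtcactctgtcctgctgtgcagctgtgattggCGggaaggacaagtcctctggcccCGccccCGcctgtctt
Glrb: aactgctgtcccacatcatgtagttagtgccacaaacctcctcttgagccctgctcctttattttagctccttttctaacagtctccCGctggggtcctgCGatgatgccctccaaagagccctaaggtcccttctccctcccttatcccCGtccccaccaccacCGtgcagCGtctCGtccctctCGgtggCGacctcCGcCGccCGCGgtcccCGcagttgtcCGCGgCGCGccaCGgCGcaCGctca

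The *Glrb* window held 20 CG dinucleotides at an observed to expected ratio of 0.925. That was more than in 82% of the 32807 promoter windows of the same length. The *Glra2* window held 8 (ratio 0.554) and the *Glra3* window 4 (ratio 0.214), on either side of the median of 6. The windows of *Glra2* and *Glra3* were thus poorer in CG than that of *Glrb*. Each of the 3 windows held GGGCGG once on the minus strand of the gene, a GC box, as did 32.7% of all windows on either strand. *Glra2* also held TATAAA once on the minus strand, a match found in 12.4% of windows, and no window held TGACGTCA (1.55% of all windows) or CACGTG (6.02%). Windows were given for 5 of the 6 genes. The 3 windows of *Slc6a9* held 8 to 10 CG dinucleotides and the 2 of *Slc6a5* held 7 and 11. These matches describe the letters only.

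*Glra2* (ENSMUSG00000018589, chrX:165129017-165327393, minus strand), the alpha2 subunit, was a brain transcript in these data. In WT STR it had 340, 331 and 351 reads, or 34.0, 38.5 and 42.2 CPM. In WT PFC it had 223, 257 and 153 reads, or 24.5, 22.4 and 24.0 CPM. No read fell on it in any of the 6 NPC libraries, and the 4 ESC libraries held 2 reads, both in WT replicate 2. Brain and cultured libraries therefore did not overlap. Against the level that 3 reads per library would give in WT NPCs, the WT mean was at least 154-fold higher in STR and at least 95.5-fold higher in PFC. No test is attached to this contrast, since *Glra2* passed the filter on low counts through the brain libraries alone. Between the brain regions the WT mean was 38.2 ± 4.09 CPM in STR and 23.7 ± 1.09 CPM in PFC (SD, n = 3), and every STR library lay above every PFC library. That order is a description, since the PFC libraries were among those that drew attention to *Glra2*.

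*Glra3* (ENSMUSG00000038257, chr8:55940460-56130070, plus strand), the alpha3 subunit, was also found in brain only, at 0.124 RPKM (CPM per kilobase of exon) in WT STR and 0.261 RPKM in WT PFC against 12.1 and 7.51 RPKM for *Glra2*. It had 13, 9 and 9 reads in WT STR and 34, 29 and 6 in WT PFC, and none in any ESC or NPC library. In CPM the level of WT PFC replicate 3 lay below those of the WT STR libraries, so the regions overlapped. The WT mean was at least 4.61-fold above the level of 3 reads per library in WT NPCs for STR and at least 9.71-fold for PFC. As for *Glra2*, no test against the cultured cells is given. In a fit of all WT libraries (edgeR quasi-likelihood test, Benjamini-Hochberg adjusted over 17672 genes), PFC against STR gave a log2 difference of 1.06 (SE 0.48, adjusted p = 0.221).

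*Glra1* (ENSMUSG00000000263, chr11:55514238-55608198, minus strand), the alpha1 subunit of adult spinal cord and brainstem, was near the limit of detection. The 3 WT STR libraries had no read, which at 3 reads allows up to 0.336 CPM, and WT PFC had 4, 9 and 0. A single read was found among the 10 cultured libraries, in NPC KO replicate 2. The exons of *Glra1* share 141 bases with the opposite-strand gene *Gm12236*, and the strand setting of the counting is not given in the sources used here. *Slc6a5* (ENSMUSG00000039728, chr7:49910146-49963856, plus strand), the transporter GlyT2 that refills glycinergic nerve endings, had 0 to 9 reads in every library and none in NPCs. Neither gene passed the filter on low counts in any contrast.

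*Glrb* (ENSMUSG00000028020, chr3:80843599-80913660, minus strand), the beta subunit, was present in all 22 libraries. Its level was 1.11 ± 0.213 RPKM in ESCs (SD, n = 2), 20.1 ± 1.58 in NPCs, 41.8 ± 3.82 in STR and 51.3 ± 6.97 in PFC (SD, n = 3 each). The first 3 groups did not overlap. STR, at 37.5, 43.1 and 44.9, and PFC, at 49.9, 45.1 and 58.9, did not overlap either, but their log2 difference of 0.26 (SE 0.13) had an adjusted p of 0.254. The step from ESC to NPC was 4.12 on the log2 scale (SE 0.19, adjusted p = 1.02e-08), and that from NPC to STR was 1.08 (SE 0.13, adjusted p = 1.67e-05). NPCs thus held beta subunit mRNA while no read of *Glra2* or *Glra3* was found in them.

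*Slc6a9* (ENSMUSG00000028542, chr4:117834506-117875198, plus strand), the transporter GlyT1 of astrocytes and some neurons, had the opposite order between NPCs and brain. Its WT level was 1.72 ± 0.0571 RPKM in ESCs (SD, n = 2), 23.2 ± 2.81 in NPCs, 4.85 ± 0.65 in STR and 6.54 ± 1.26 in PFC (SD, n = 3 each). NPCs exceeded ESCs by 3.70 on the log2 scale (SE 0.20, adjusted p = 3e-08). STR lay below NPCs, with a log2 difference of -2.24 (SE 0.15, adjusted p = 1.61e-07). PFC and STR overlapped and differed by 0.40 (SE 0.15), with an adjusted p of 0.125 that became 0.0408 when sample numbers were blocked. The 5 astrocyte markers summed to 664 to 2207 CPM in WT NPCs, 1148 to 1203 in WT STR and 1455 to 1573 in WT PFC, and their part in this order was not tested. Exons of *Slc6a9* share 1429 bases with *Ccdc24*, 511 with *Gm17114* and 46 with *B4galt2*, all on the other strand.

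*Glrb* and *Slc6a9* passed an adjusted p of 0.05 for NPC against ESC, where 72% of all genes did, and for STR against NPC, where 75.2% did, so nothing is read from their passing. For PFC against STR 12.3% of genes passed, while of the 3 members other than *Glra2* none did by edgeR without the block or by DESeq2, and 1, *Slc6a9*, had an unadjusted p below 0.05. The median of all genes was itself displaced by -0.13 (NPC against ESC), 0.12 (STR against ESC) and 0.12 (STR against NPC) on the log2 scale, small beside the member differences. In bulk tissue, fewer cells of a type and less RNA per cell cannot be told apart. Cultured and brain libraries also differed in the share of alignments that were not counted, given with the processing below. The part of that share in the differences between cultured cells and brain was not tested.

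**Figure D1:**
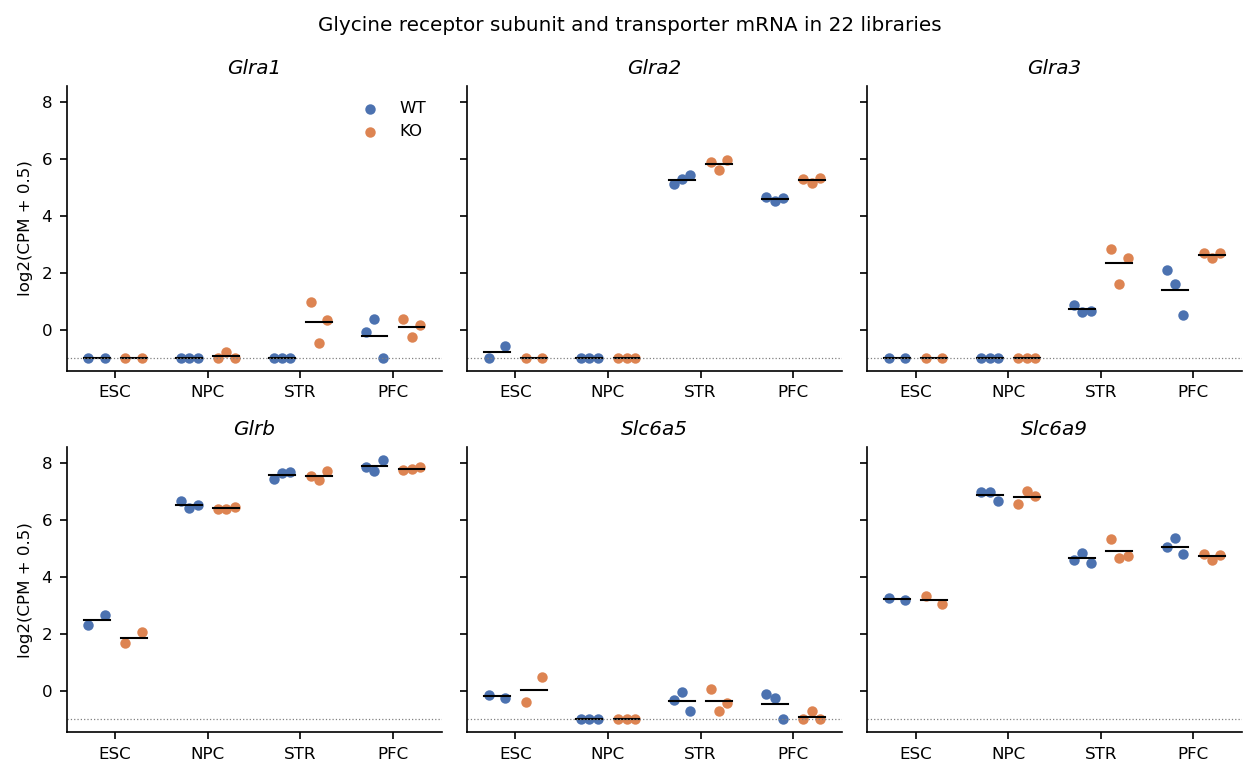
Level of each of the 6 genes in every library, as log2(CPM + 0.5) on the vertical axis, by tissue on the horizontal axis, with WT in blue, KO in orange and a black line at each group mean. The dotted line marks 0 reads: *Glra2* and *Glra3* sit on or next to it in all ESC and NPC libraries and well above it in STR and PFC, while *Glrb* and *Slc6a9* are present everywhere.

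The contrast that bears on *Phf8* without having been used to choose *Glra2* is KO against WT in the ventral striatum. Since STR and PFC may come from the same animals, it may not be independent of that choice. *Glra2* had 527, 436 and 482 reads in the KO libraries, or 58.7, 48.4 and 60.9 CPM. All 3 lay above the 3 WT libraries, whose highest was 42.2 CPM. The log2 fold change was 0.56 (SE 0.11), from 12.1 ± 1.30 to 17.8 ± 2.12 RPKM (SD, n = 3), with an adjusted p of 0.291 in edgeR's quasi-likelihood test over 15476 genes and an unadjusted p of 0.000575.

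*Glra3* had a larger fold change from a lower level, 0.124 RPKM in WT and 0.522 RPKM in KO on average. The KO libraries held 60, 23 and 41 reads, or 6.69, 2.56 and 5.18 CPM, against 1.30, 1.05 and 1.08 CPM in WT. The lowest KO library again lay above the highest WT library. The log2 fold change was 2.06 (SE 0.39), with an adjusted p of 0.291 by edgeR and an unadjusted p of 0.000368. Its WT libraries held only 13, 9 and 9 reads. A filter that asked for at least 10 reads in every library left *Glra3* out of the test. The p-values and calls of *Glra3* in STR, here and below, carry this limit.

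By that test 0 of the 4 members tested in STR were called. It called 0% of all genes, and *Phf8* itself had an adjusted p of 0.0956, although 8.7% of genes had an unadjusted p below 0.05. Of the members 2, *Glra2* and *Glra3*, were below that unadjusted limit. DESeq2 called both (adjusted p = 0.0308 for *Glra2* and 0.0172 for *Glra3*), where it called 0.297% of genes, and edgeR's likelihood ratio test called both (0.00776 and 0.00147), where it called 0.607% of genes. The quasi-likelihood test without a filter on low counts also called both (0.0315 and 0.0198) and called 0.111% of genes. All these fits used the same libraries, so the like size and direction of the 2 differences between tools is no separate support. Whether they passed depended on the tool and filter.

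STR KO replicate 1, the library with the hypothalamic signal, was the highest for *Glra3* and the second highest for *Glra2*. Its hypothalamic sum was led by *Avp* at 62.7 CPM, *Trh* at 58.8 CPM and *Oxt* at 39.6 CPM, and it was the one STR library with reads on *Sim1*. The other KO libraries had hypothalamic sums of 35.3 and 25.7 CPM against 15.6 to 18.6 CPM in WT, so the sum lay above WT in all 3. In replicates 2 and 3 it was carried by *Trh* (14.1 and 16.2 CPM), *Oxt* (9.66 and 2.65) and *Avp* (6.11 and 2.53), each above every WT library. *Otp*, *Agrp* and *Pomc* did not exceed the highest WT library there, *Sim1* had no read, and *Hcrt* and *Pmch* had 1 to 4 reads. The 9 hindbrain and spinal cord markers summed to 2.34, 0.555 and 1.14 CPM in KO against 0.30, 0.116 and 0.36 CPM in WT, so this sum too lay above WT in all 3. Most of its KO reads, 20, 5 and 7, were those of *Lhx1*, and 7 or 8 of the 9 genes were at 0 in every STR library. Without replicate 1 the log2 fold change was 0.51 (SE 0.13) for *Glra2* and 1.72 (SE 0.39) for *Glra3*, with adjusted p = 0.597 and 0.514 by edgeR's quasi-likelihood test. DESeq2 then called neither (0.0707% of genes), the likelihood ratio test called *Glra3* alone (adjusted p = 0.0304, 0.242% of genes), and the test without a filter called both (0.00832 and 0.00846, 0.296% of genes). The differences in level remained without that library. The part played by the smaller hypothalamic and hindbrain sums of the other 2 KO libraries was not tested.

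**Figure D2:**
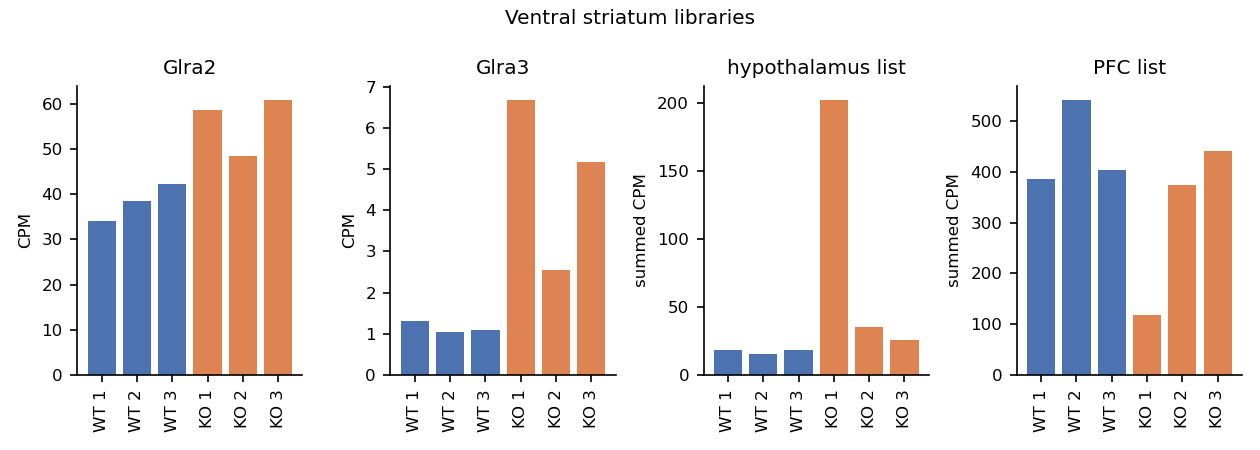
*Glra2* and *Glra3* in CPM, and the summed CPM of 9 hypothalamic and 5 cortical marker genes, in each of the 6 ventral striatum libraries (WT blue, KO orange). KO replicate 1 has the tallest hypothalamic bar (203 CPM) and the shortest cortical bar (117 CPM), while *Glra2* and *Glra3* lie above WT in all 3 KO libraries.

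Within the striatum *Glra1* reads were found in the KO libraries only, with 13, 2 and 6 against 0, 0 and 0 in WT. The KO mean of 0.81 CPM was at least 2.41-fold above the level of 3 reads per library in WT, but KO replicate 2, with 2 reads, was below that level. The largest value again came from replicate 1. The gene did not pass the filter on low counts, and without the filter its adjusted p was 0.116 by edgeR's quasi-likelihood test. For *Slc6a5* the STR libraries held 3, 4 and 1 reads in WT and 5, 1 and 2 in KO, a difference that was not detectable at this depth.

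The other members of the system lay close to WT in the striatum. *Glrb* had 189, 171 and 209 CPM in KO against 175, 200 and 209 CPM in WT, a log2 fold change of -0.03 (SE 0.10, adjusted p = 0.964), or -0.04 without KO replicate 1. *Slc6a9* had 40.5, 24.8 and 26.3 CPM in KO against 24.1, 28.6 and 22.1 CPM in WT, with a log2 fold change of 0.30 (SE 0.19, adjusted p = 0.721). Its high value was that of replicate 1, and without it the log2 fold change was 0.03 (SE 0.14). KO and WT libraries thus did not overlap for either tested alpha subunit and overlapped for *Glrb* and *Slc6a9*. The share of all genes without such overlap is not given here, so nothing is read from this split.

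In the prefrontal cortex, where *Glra2* was chosen, the KO libraries had 341, 320 and 322 reads of it, or 38.6, 35.0 and 39.5 CPM. The WT libraries, at 22.4 to 24.5 CPM, lay below all 3, and the log2 fold change was 0.66 (SE 0.10). *Glra3* had 53, 47 and 48 reads in KO, or 6.0, 5.15 and 5.88 CPM, against 3.74, 2.53 and 0.941 CPM in WT, a log2 fold change of 1.15 (SE 0.31). No KO library overlapped a WT library for *Glra3*, and WT PFC replicate 3, the shallowest library of the series, had the lowest value. The share of all genes without such overlap in PFC is not given here, so nothing is read from it for either gene.

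*Glrb* in the PFC ranged from 219 to 231 CPM in KO and from 210 to 274 CPM in WT (log2 fold change -0.10, SE 0.09). *Slc6a9* had 27.8, 24.0 and 26.8 CPM in KO and 32.8, 40.5 and 27.6 CPM in WT (-0.39, SE 0.13), with overlap between the groups. *Glra1* had 4, 9 and 0 reads in WT and 7, 3 and 5 in KO, and *Slc6a5* had 4, 4 and 0 against 0, 1 and 0. Among 15364 genes tested 0.638% passed an adjusted p of 0.05, and 0.163% passed and were higher in KO. The 1 member among them was *Glra2*, as its choice from this contrast implies, so nothing is read from the count. The hypothalamic list summed to 8.58 to 12.4 CPM in KO PFC and 3.85 to 18.5 CPM in WT PFC, with overlap. The oligodendrocyte list summed to 1213 to 1284 CPM in KO and 1467 to 1954 CPM in WT, and its part in the differences was not tested.

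The cultured cells allowed a test of *Glrb* and *Slc6a9* only. In NPCs *Glrb* had 84.1, 84.0 and 87.0 CPM in KO against 100.9, 86.2 and 93.2 CPM in WT (log2 fold change -0.13, SE 0.08, adjusted p = 1.0). *Slc6a9* had 93.5, 131 and 114 CPM in KO against 126, 128 and 102 CPM in WT (-0.07, SE 0.15, adjusted p = 1.0). Both ranges overlapped. In ESCs *Glrb* had 30 and 37 reads in KO against 44 and 68 in WT, or 2.7 and 3.66 CPM against 4.48 and 5.88 CPM. The 2 KO libraries lay below the 2 WT libraries, with a log2 fold change of -0.70 (SE 0.34, adjusted p = 1). *Slc6a9* in ESCs differed by -0.02 (SE 0.19), with overlap.

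Neither gene was called in ESCs or NPCs by edgeR's quasi-likelihood test, by its likelihood ratio test or by DESeq2, and none had an unadjusted p below 0.05 in any of the 3. By the quasi-likelihood test 0% of genes were called in ESCs and 0.00697% in NPCs, the 1 gene being *Phf8*. The likelihood ratio test called 0.00663% and 0.0139% of genes in ESCs and NPCs, and DESeq2 0.0125% and 0.0131%. These 3 tests leave out the sample numbers that pair WT and KO cultures. With sample numbers blocked in the quasi-likelihood test, *Glrb* in ESCs had an unadjusted p of 0.00373 (adjusted p = 0.0796), where 3.4% of genes were called. In NPCs its unadjusted p was then 0.0799, where 0.0209% of genes were called. Neither gene passed in either tissue with the block. For *Glrb* the effect of KO differed between STR and ESCs by 0.68 on the log2 scale (SE 0.23) and between NPCs and ESCs by 0.58 (SE 0.23), and between STR and NPCs by 0.10 (SE 0.16). All 3 had an adjusted p of 1 over 18080 genes, with unadjusted p of 0.00822, 0.0207 and 0.543 in edgeR. No difference in KO effect between these tissues was called for any member, where 0% of genes were called. *Glra2* and *Glra3* could not be compared in this way, since the cultured cells gave no level to change.

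**Figure D3:**
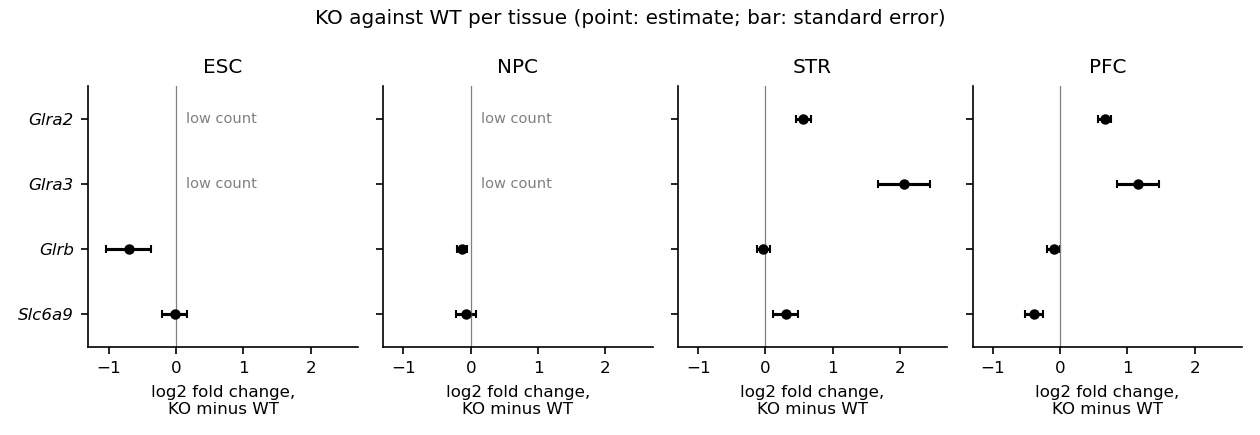
Log2 fold change of KO against WT (horizontal axis) for the 4 members with enough reads, in a panel per tissue, with points at the estimate and bars of 1 standard error. *Glra2* and *Glra3* lie to the right of 0 in STR (0.56 and 2.06) and PFC (0.66 and 1.15, a description), *Glrb* lies near 0 in STR, PFC and NPC, and low count marks genes not tested.

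The alpha subunits can be compared with each other once their reads are divided by exon length. *Glra2* made up 94.4, 96.4 and 95.7% of the summed alpha RPKM (*Glra1* to *Glra4*) in WT STR and 91.1, 94.0 and 94.2% in KO STR. The shares did not overlap, with a difference of -2.41 percentage points and an exact two-sided permutation p of 0.1, the smallest that 3 against 3 libraries can give. *Glra3* accounted for 0.99 ± 0.214% in WT and 2.66 ± 0.928% in KO (SD, n = 3, exact permutation p = 0.1). *Glra1*, below the filter on low counts, accounted for 0% in WT and 1.675 ± 1.19% in KO (SD, n = 3), and no test is given for it. Its KO share rests on 21 reads, 13 of them in replicate 1. The shares of a library are parts of the same sum, so their differences are not separate results. These shares depend on the length used: with coding lengths *Glra3* stood at 2.71% in WT and 7.07% in KO, and the difference in the *Glra2* share was -4.94 percentage points. Without KO replicate 1 the difference in the *Glra2* share was -1.4 percentage points. *Glra2* remained the main alpha subunit transcript in both genotypes.

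In the PFC *Glra2* made up 94.6 ± 3.53% of the alpha sum in WT and 93.1 ± 0.56% in KO, and *Glra3* 3.24 ± 1.78% and 4.79 ± 0.117% (SD, n = 3), or 8.41% and 12.2% with coding lengths. *Glra4*, another alpha subunit gene on the X chromosome, had 10, 6 and 8 reads in WT STR and 9, 11 and 5 in KO STR, against 0, 0 and 0 in WT PFC and 0, 1 and 1 in KO PFC. The WT STR mean was 0.886 CPM, and no test is given against the 0 reads of WT PFC.

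Set against the alpha sum, beta subunit mRNA was in excess in every brain library. The ratio of *Glrb* RPKM to the alpha sum was 3.29, 3.39 and 3.21 in WT STR and 1.98, 2.24 and 2.19 in KO STR. The groups did not overlap, with or without KO replicate 1 (difference -1.16 with it). *Glra2* made up most of the alpha sum and *Glrb* lay close to WT in STR. The ratio thus mostly restates the *Glra2* difference, so it is not a separate result and no test is given. In the PFC it was 5.96, 5.84 and 7.62 in WT and 3.55, 4.03 and 3.69 in KO, again without overlap and given as a description. The 2 regions kept their order in both genotypes, with PFC above STR. The alpha sum itself was 11.4 to 14 RPKM in WT STR and 16.4 to 20.5 RPKM in KO STR, and *Glrb* overlapped between the genotypes in both regions.

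**Figure D4:**
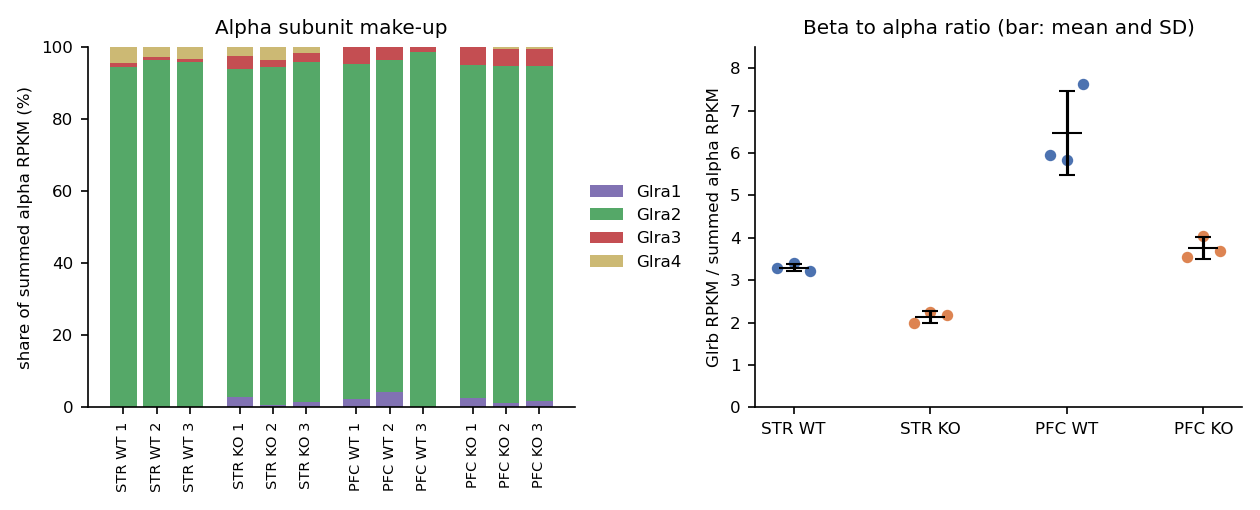
Left, share of each alpha subunit gene in the summed alpha RPKM of each brain library, in percent. Right, ratio of *Glrb* RPKM to the alpha sum per library (WT blue, KO orange), with the mean and SD of 3 libraries: 3.30 and 2.14 in WT and KO STR, and 6.47 and 3.76 in WT and KO PFC.

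The wider set of glycine genes gave a frame for these values. Among 4 other genes of the glycine receptor and inhibitory synapse, 3 were tested in STR and 0 passed in either direction, as was the case for 4 tested glycine transporters, 10 tested genes of glycine metabolism and 3 tested genes of the NMDA receptor glycine site. The test called 0% of all genes in this contrast, so nothing is read from these counts. *Gphn*, which encodes gephyrin, had a log2 fold change of -0.04 (SE 0.08) and *Slc32a1*, the vesicular transporter of GABA and glycine, 0.09 (SE 0.08). The largest difference of the 20 tested was that of *Grin3a*, a glycine-binding NMDA receptor subunit, at 66.0 CPM in WT and 104 CPM in KO (0.66, SE 0.13, adjusted p = 0.292), and it was 0.69 without KO replicate 1. *Slc6a20a*, a transporter of proline and glycine, was then larger at 0.87 (SE 0.55), against 0.54 (SE 0.56) with that library. In the PFC, as a description, *Grin3a* averaged 55.9 CPM in WT and 70.1 CPM in KO.

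Glycine metabolism was described in the same way. In STR 3 of its 10 tested genes had a positive log2 fold change, with a median of -0.04, against a median of 0.00 over all genes, and without KO replicate 1 it was 6 of 11 with a median of 0.02. In the PFC 1 of 10 did, with a median of -0.18 against -0.02. The lowest there were *Phgdh* (-0.39) and *Psat1* (-0.32), both enzymes of serine synthesis upstream of glycine, and *Gldc* of the glycine cleavage system was at -0.26. All 3 are described only. The 14 tested GABA-A receptor subunits, the other chloride channels of inhibitory synapses, had a median of 0.17 in STR with 11 above 0. None was called, where 0% of all genes were called. The highest were *Gabre* (1.98, adjusted p = 0.453) and *Gabrq* (1.79, adjusted p = 0.452), which are known from the hypothalamus. Without KO replicate 1 they were at 1.07 and 1.01. None of the listed genes was then called by edgeR's quasi-likelihood test, nor was *Phf8* (adjusted p = 0.0512), so nothing is read from this.

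Between WT tissues glycine metabolism was lower in NPCs than in ESCs. Of its 11 tested genes 10 were lower and none was higher in this contrast, where 39.8% of all genes tested were lower. In STR against NPCs 7 were lower and 1 higher, where 34.6% of all genes were lower, and the 8 called of 11 are close to the 75.2% called over all genes. *Shmt2*, the mitochondrial serine hydroxymethyltransferase, differed by -1.3 and -2.1 on the log2 scale in these contrasts, and *Gldc* by -1.46 and -1.70. The 4 other receptor and synapse genes had no common direction, with 2 higher and 1 lower in NPCs than in ESCs and 2 higher and 2 lower in STR than in NPCs. Among them *Gphn* was slightly lower in STR than in NPCs (-0.39, SE 0.10, adjusted p = 0.00387), whereas *Glrb* was higher.

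**Figure D5:**
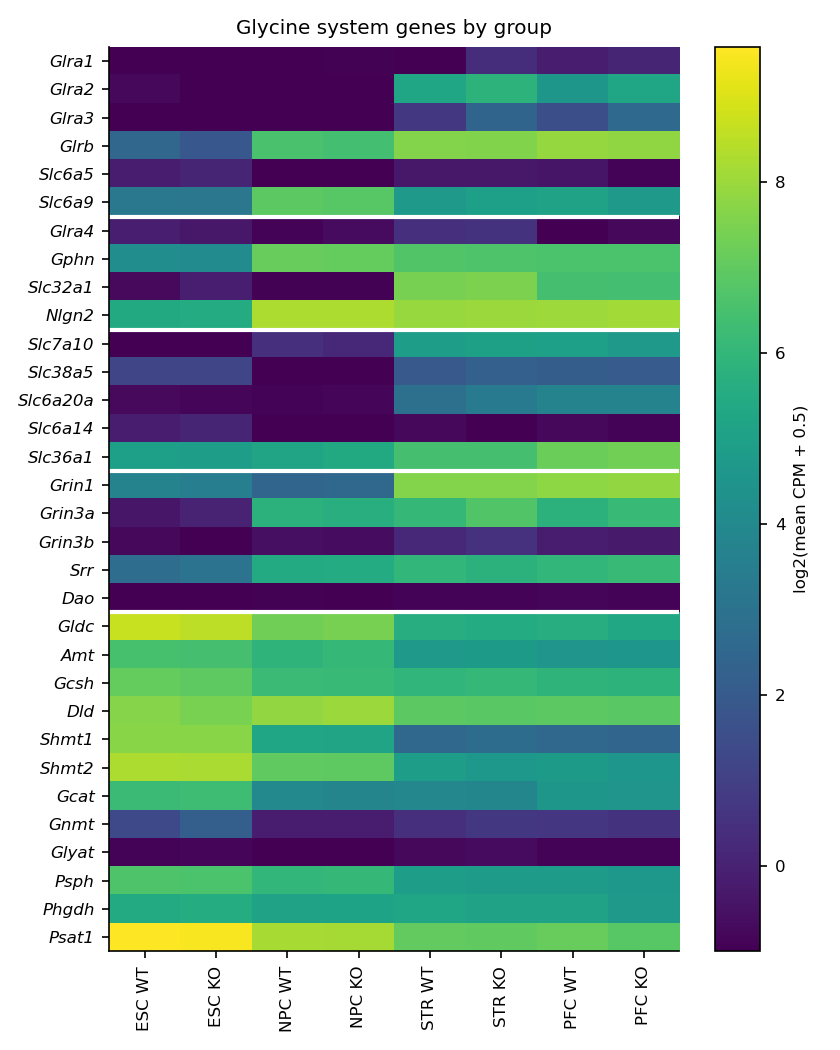
Heat map of log2(mean CPM + 0.5) for the 6 members (top block) and 26 further glycine genes, in blocks from top to bottom for receptor and synapse, transporters, NMDA receptor glycine site and metabolism, with a column per group. Rows are to be read across, since CPM is not divided by gene length: metabolism genes such as *Shmt2* are brightest in ESCs, and *Glra2*, *Glra3* and *Slc32a1* in brain.

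The genes whose level followed *Glra2* most closely over all 22 libraries were *Epha6* (Pearson r = 0.998 on log2 CPM), *Caln1* (0.998), *Vwc2l* (0.997), *Gm15624* (0.997) and *Ctxn2* (0.997). All 5 averaged below 0.1 CPM in every cultured group and 1.6 to 87.5 CPM in the brain groups, so the 22 points fall into brain and culture and the coefficient rests on that split. *Glra3* stood at rank 1437 (r = 0.946), while *Glrb* had r = 0.695 and *Slc6a9* r = -0.235. Over the 6 STR libraries alone the closest were *Rfesd* (0.992), *Tnfaip1* (0.989), *Galnt16* (0.986), *Ccdc85a* (0.984) and *Zbtb7c* (0.982), with *Glra3* at rank 172 among 15476 genes (0.92). With 6 points that share tissue and genotype many genes reach such values, and no test is attached.

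The neighbours of *Glra2* on the X chromosome were described as well. Of 16 genes of the tables that start within 1 Mb of its start, 8 were tested in STR, with log2 fold changes from -0.33 (*Asb11*) to 0.12 (*Vegfd*), and 2 of 8 above 0. *Glra2*, at 0.56, lay outside that range, but without KO replicate 1 *Vegfd* was at 0.51 (SE 0.48), level with *Glra2* at 0.51. None of the neighbours was called in STR, NPCs or ESCs by the quasi-likelihood test. It called 0% of all genes in STR and ESCs and 0.00697% in NPCs, so nothing is read from this. In the PFC, as a description, 6 of 7 were above 0 with a median of 0.14, and *Vegfd* stood out at 1.24 (SE 0.27), from 2.84 to 6.86 CPM.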

How the data were processed

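The deposited files, 1 per library, held raw read counts per Ensembl gene. For these counts the authors used STAR (mm10/GRCm38) as aligner and HTSeq with genes of Ensembl release 75 as counter, the submitters' processing notes also naming CASAVA 1.7. The strand setting is not given in the sources used here. Rows that name no gene held 20.2 to 53.1% of the reported alignments and were left out. Their share was 49.9 to 53.1% in ESCs, 42.3 to 44.5% in NPCs, 20.2 to 26% in STR and 21.7 to 23.2% in PFC. Cultured and brain libraries thus did not overlap in this share. Symbols and exon lengths came from GENCODE M21 (37607 of 39179 identifiers matched).

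Groups followed the sample titles. Genes were kept by filterByExpr, scaled by TMM and tested with the quasi-likelihood test of edgeR 4.0.16 (robust, R 4.3.3), with Benjamini-Hochberg adjustment over all genes tested and a threshold of 0.05. KO was compared with WT per tissue, WT tissues in 1 fit, and KO effects between tissues in 1 fit of all 22 samples. CPM and RPKM used TMM over all 22 samples. Standard errors were derived from the fold change and its F statistic. A group without reads was set at 3 reads per library, which covers counting error only. The scripts were tested on simulated data. DESeq2 1.42.0, the likelihood ratio test, other scalings and filters, blocks and left-out libraries were the alternatives, and the combinations that leave out STR KO replicate 1 were chosen after seeing the data. The closest pair of replicates differed by 1.83 in chi-square per degree of freedom, so no library was counted as a duplicate.

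Same-numbered WT and KO samples deviated together in NPCs (correlations 0.402 to 0.638), which pairs them, and in ESCs (0.787). With 2 ESC samples per group the 2 pairs give the same correlation by construction, so it is a single value. In STR and PFC not every pair of samples deviated together (-0.0259 to 0.113). The members and the gene lists were chosen with earlier results of these data known, and 1 gene of the synapse list is not reported here. Named are the members, *Phf8*, genes of the lists described, the 5 genes most like *Glra2* in each set of samples and genes within 1 Mb of it. Promoter sequences are those of RefSeq on GRCm38.p6.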

Additional observations from a re-analysis of the deposited data

How the results depend on the processing

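Of the values of single members, 567 kept their side of the threshold under the alternatives, 13 passed it only under an alternative and 12 only in the reported fit. None changed sign while past the threshold in either fit. Differences that passed in neither fit could change sign, as did *Glrb* in STR (log2 fold change -0.03, and 0.03 without KO replicate 2). In STR, where no member was called, DESeq2, the likelihood ratio test and the fit without a filter called 2 each; with STR KO replicate 1 left out as well, the likelihood ratio test called 1 and the fit without a filter 2. Leaving out 1 library at a time kept the STR count at 0, with log2 fold changes of 0.48 to 0.65 for *Glra2* and 1.72 to 2.36 for *Glra3*. In PFC, where 1 member passed, the likelihood ratio test and the fit without a filter gave 2, the fit of all 22 samples 0, and left-out libraries 0 to 1, with 0 without WT replicate 2 or any of the 3 KO replicates. For WT PFC against STR, where 1 passed (*Glra2*, a description), leaving out any library of either region gave 0, and left-out ESC or NPC libraries kept 1. The difference in the *Glra2* share in STR was -4.94 percentage points with coding lengths in place of exon lengths, and Spearman's rho shared 2 (22 samples) and 1 (STR) of the 5 genes most like *Glra2*. The cause of these shifts was not tested.

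A replicate block, with the sample number as a term, gave a count of members called of 0 in STR, NPCs and ESCs, as without the block, also with an offset for GC content. Adjusted p for *Glra2* and *Glra3* in STR was 0.178 and 0.133, and that of *Glrb* in ESCs was 0.0796, where the block raised the share of genes called to 3.4%. For WT PFC against STR the block left 1 member called, *Slc6a9* (adjusted p = 0.0408) in place of *Glra2*; no other call changed with the block. Depth limits *Glra1* and *Slc6a5*, whose reads did not exceed 13 in any library.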
